A study of Homo sapiens with 6 samples.

Results

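Elastic fibre genes and the lysyl oxidase family were followed through the differentiation of human embryonic stem cells into smooth muscle cells. The 10 genes are LOX, LOXL1, LOXL2, LOXL3, LOXL4, ELN, FBN1, FBN2, FBLN5 and MFAP4. They were chosen by name, with earlier results of these data known. Their counts beside the share of all genes therefore describe the list and are no independent test. Each was represented by a single-symbol probe set, and all 10 of them were measured among the 18417 genes tested. Each of the 10 had only 1 such probe set, and none lay on a probe set shared with another gene.

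The 6 samples, 2 arrays for each of 3 stages, all came from the established embryonic stem cell line WA09, so the groups are stages of 1 line. The stages were undifferentiated cells kept in defined medium (hESC), ISL1-positive nascent mesoderm at day 4 (INM) and smooth muscle cells at day 21 (SMC). To reach INM and SMC the medium was supplemented with 25 ng/ml of Wnt3a and 50 ng/ml of BMP4. Separate cultures are not stated for the replicates, so p-values reflect the spread of these arrays alone, part or all of which may be technical.

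Elastic fibres give arteries, lung and skin their recoil. A scaffold of microfibrils, built from the fibrillins FBN1 and FBN2 with associated proteins such as MFAP4, receives tropoelastin, the soluble product of ELN, with the help of FBLN5. Copper-dependent lysyl oxidases then oxidise lysine side chains, which join tropoelastin molecules into elastin and also cross-link collagen. Vascular smooth muscle cells are a main source of elastin in the artery wall.

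Array values are log2 RMA signals, so a difference of 1 is a doubling of signal, and folds are ratios of such signals. Replicate agreement was poorest in INM: over all genes the pooled SD of its pair was 0.313, against 0.149 for hESC and 0.132 for SMC, and 700, 16 and 11 genes differed by more than 1 within these pairs. The fit used 1 spread per gene for all 3 stages, so the SE of a gene is the same in each comparison. A wide gap between the INM arrays thus also widens the SE from hESC to SMC. Leaving out an hESC or SMC array gives the INM pair more weight in that spread. A stage left with 1 array adds nothing to the spread, so such p-values do not measure the variation of that stage. The stage labels were checked with markers. All 6 stem cell markers fell between hESC and SMC, with SOX2 at -5.77 on the log2 scale, where 17.6% of all genes fell. From hESC to INM 5 of the 6 fell, where 14.8% of all genes fell. LIN28A, at 12.10 and 12.08 in hESC and 10.39 and 11.76 in INM, was not called in that step (adjusted p = 0.095). DNMT3B fell but still stood at 8.55 and 9.02 in INM, beside 6.53 and 6.53 in SMC. Of 6 nascent mesoderm markers, 5 rose from hESC to INM, with ISL1 at 4.10, where 18.9% of all genes rose, and KDR was not called. The GATA4 and PDGFRA calls ended without either hESC array. From INM to SMC 2 fell, ISL1 at -3.14 and HAND1 at -5.14, where 9.94% of all genes rose and 11.1% fell. In that step PDGFRA and TBX20 rose, at 1.71 and 1.43, calls that ended without either hESC or either SMC array. GATA4 and KDR were not called there. Of 8 smooth muscle markers, 6 rose between hESC and SMC, with ACTA2, smooth muscle alpha-actin, up by 6.64, where 19.7% of all genes rose. The calls of TAGLN, MYOCD and SMTN ended without either hESC or either SMC array. INM replicate 1 minus replicate 2 was 1.13, -0.79 and -0.66 for these genes. MYH11, the smooth muscle myosin heavy chain that marks the mature cell, stood at 5.59 and 5.43 in SMC and at 5.77 and 5.51 in hESC. Its change of -0.13 was not called (adjusted p = 0.507). Medians of probe sets with no gene name were 5.34 and 5.31 on the SMC arrays and 5.62 and 5.65 on the hESC arrays. MYH11 is thus not shown to lie above background at either stage. DES, the other marker not called, changed by 0.47 (adjusted p = 0.0771).

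Between hESC and SMC, 9 of the 10 genes rose, 0 fell and 1, ELN, did neither. At the same threshold 19.7% of all genes tested rose and 17.6% fell. The median change over the 10 genes was 2.56 on the log2 scale, beside -0.05 over all genes. LOX had the 4th largest rise of the 18417 genes and MFAP4 the 11th. No single array ended any of the 9 calls when it was left out. On the plain criterion that the arrays of the stages do not overlap, 9 genes were higher in SMC and ELN was lower, where 35.0% and 40.3% of all genes did the same. The moderated F test, which asks whether a gene differs between any of the groups, called the same number, 9 of 10, where 45.5% of all genes were called.

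**Figure D1:**
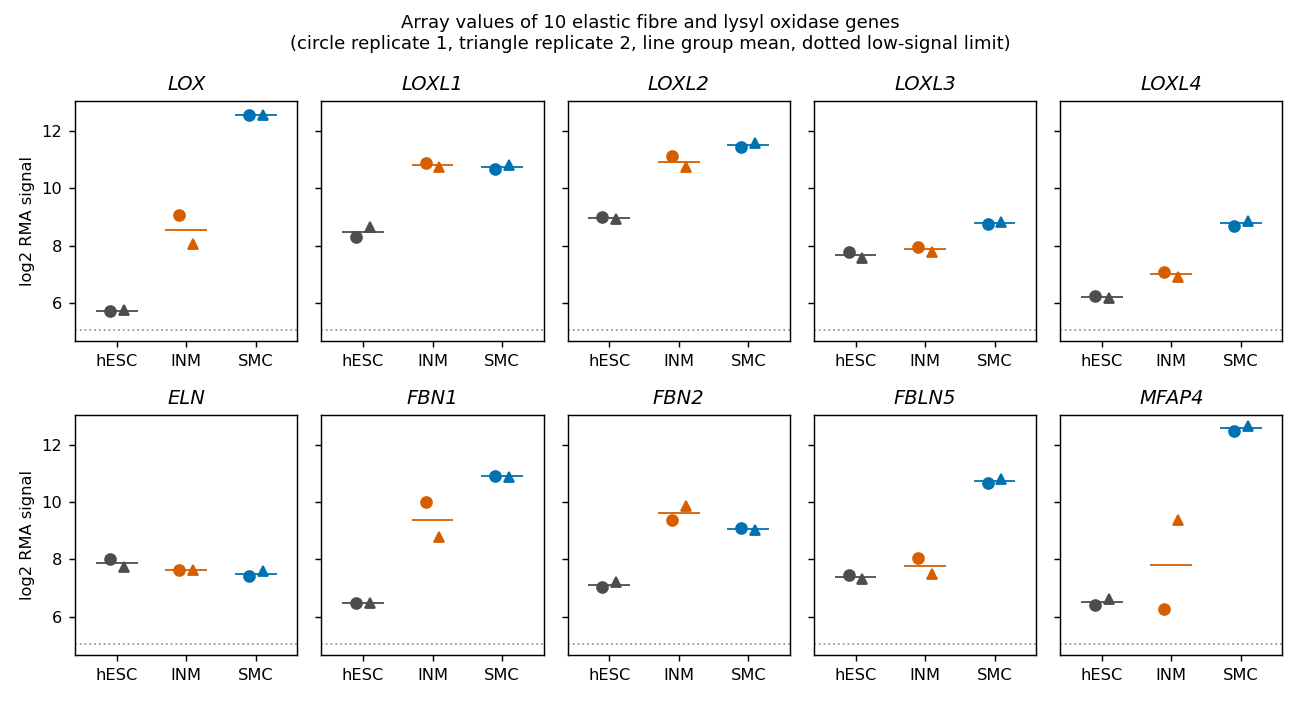
Each panel plots the log2 RMA signal of 1 gene on the y axis for the 6 arrays, grouped by stage on the x axis, with circles for replicate 1, triangles for replicate 2, a line at the group mean and a dotted line at the low-signal limit of 5.04. LOX climbed from 5.70 and 5.74 in hESC to 12.56 and 12.58 in SMC, whereas every ELN value lay between 7.41 and 8.00.

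The upstream sequences of 3 genes are shown because each stands for another time course. With all arrays used, LOX was called higher at both steps, FBN2 by day 4 and not after, and FBLN5 after day 4 and not before. The RefSeq promoter table of build GRCh38.p14 held 7 of the 10 genes, all but LOXL2, ELN and MFAP4. Each sequence is the 250 bases before the most upstream start that the table lists, on the minus strand, at chr5:122078260-122078509 for LOX, chr5:128538246-128538495 for FBN2 and chr14:91947695-91947944 for FBLN5. Capitals mark matches on either strand to ACGTG, the core that hypoxia-inducible factors and some basic helix-loop-helix factors recognise, and to CAGAC, a core of SMAD binding elements. The CAGAC match in LOX overlaps an ACGTG match.
LOX: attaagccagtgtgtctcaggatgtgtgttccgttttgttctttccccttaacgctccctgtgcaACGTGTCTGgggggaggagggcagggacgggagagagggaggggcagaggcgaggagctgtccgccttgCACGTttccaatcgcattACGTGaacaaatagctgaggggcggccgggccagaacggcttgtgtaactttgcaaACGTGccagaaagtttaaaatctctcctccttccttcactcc
FBN2: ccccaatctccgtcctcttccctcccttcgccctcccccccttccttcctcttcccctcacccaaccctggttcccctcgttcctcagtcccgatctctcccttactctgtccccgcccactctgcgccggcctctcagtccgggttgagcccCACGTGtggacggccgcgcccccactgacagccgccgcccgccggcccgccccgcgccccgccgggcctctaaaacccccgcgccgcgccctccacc
FBLN5: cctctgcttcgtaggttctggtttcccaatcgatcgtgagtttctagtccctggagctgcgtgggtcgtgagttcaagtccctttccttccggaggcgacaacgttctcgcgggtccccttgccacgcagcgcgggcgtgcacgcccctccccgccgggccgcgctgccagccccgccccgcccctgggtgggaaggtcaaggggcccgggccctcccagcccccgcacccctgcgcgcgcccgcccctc

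The LOX sequence held 4 matches to ACGTG and 1 to CAGAC. FBN2 held 2 matches to ACGTG, which are the same palindromic letters read on both strands, and FBLN5 held neither. Over 27305 promoters of the same length, 18.6% held ACGTG, 0.71% held it at least 4 times, and 37.9% held CAGAC. No match to TATAAA (11.2% of all promoters) or to the CArG box, the site of serum response factor (1.1%), was found in the 7 genes. The letters were chosen with the sequences in view, and a match describes the sequence, not a bound site.

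LOX, the founding lysyl oxidase, had the largest change of the 5 lysyl oxidases over the whole course. Its values were 5.70 and 5.74 in hESC, then 9.06 and 8.04 in INM, then 12.56 and 12.58 in SMC. No values overlapped between stages, and the order hESC, INM, SMC held with steps far above the replicate gaps, of which the largest was the 1.02 between the INM arrays. LOX rose 7.12-fold from hESC to INM, by 2.83 on the log2 scale (SE 0.30, adjusted p = 0.00101). From INM to SMC it rose a further 16.2-fold, by 4.02 (SE 0.30, adjusted p = 4.4e-04), the 10th largest rise of all genes in that step. The whole course from hESC to SMC came to 116-fold, or 6.85 (SE 0.30, adjusted p = 2.9e-05). On the hESC arrays the medians of probe sets with no gene name were 5.62 and 5.65, close to the LOX values. The 7.12-fold and 116-fold rises are thus ratios to an hESC level not shown to lie above background. Bulk RNA cannot tell fewer cells that express a gene from less of its RNA per cell.

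LOXL1, the family member tied to elastin rather than collagen in mouse genetics, was called in the first step and not in the second. It stood at 8.30 and 8.66 in hESC, then 10.87 and 10.74 in INM, then 10.68 and 10.82 in SMC. The INM and SMC arrays overlapped, and both pairs lay above hESC. The rise by day 4 was 5.02-fold, or 2.33 (SE 0.15, adjusted p = 1.8e-04). The change from INM to SMC was -0.05 (SE 0.15, adjusted p = 0.841), with a 95% interval from -0.43 to 0.32, and its sign turned when INM replicate 1 (0.01) or SMC replicate 1 (0.02) was left out.

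LOXL2, which acts on collagen IV of basement membranes, also rose in the first step. Its values were 9.01 and 8.93 in hESC, then 11.12 and 10.74 in INM, then 11.45 and 11.60 in SMC. The stages did not overlap, with INM replicate 1 close below the SMC arrays. The first step was 3.89-fold, or 1.96 (SE 0.16, adjusted p = 3.4e-04). The second was 1.51-fold, or 0.60 (SE 0.16, adjusted p = 0.0395). That second call ended after quantile normalization (0.59, adjusted p = 0.0598) and with the replicate number as a block (adjusted p = 0.0551). It also ended when only the INM and SMC arrays were fitted (adjusted p = 0.0851). For this step a fit without hESC replicate 1 or 2 is that same test. The call ended too without INM replicate 2 (0.41), SMC replicate 1 (0.67) or SMC replicate 2 (0.52).

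LOXL3 and LOXL4 rose mainly after day 4. LOXL3 stood at 7.76 and 7.56 in hESC, then 7.95 and 7.79 in INM, then 8.75 and 8.83 in SMC, so that hESC and INM were close and SMC lay apart. Its first step was 0.21 (SE 0.13, adjusted p = 0.245), with a 95% interval from -0.10 to 0.52, and its second was 1.89-fold, or 0.91 (SE 0.13, adjusted p = 0.0045); the second call ended without SMC replicate 2 (adjusted p = 0.0564). LOXL4 stood at 6.25 and 6.16 in hESC, then 7.07 and 6.91 in INM, then 8.69 and 8.86 in SMC. Its stages did not overlap, and it rose at both steps. LOXL4 rose 1.73-fold by day 4, or 0.79 (SE 0.13, adjusted p = 0.0046), and 3.45-fold from INM to SMC, or 1.79 (SE 0.13, adjusted p = 3.4e-04).

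ELN, the gene of the elastic core itself, was the 1 gene of the 10 that did not rise. Its values were 8.00 and 7.75 in hESC, then 7.64 and 7.62 in INM, then 7.41 and 7.59 in SMC. The SMC arrays were the lowest and the hESC arrays the highest, and neighbouring stages differed by about as much as the arrays of the hESC pair. The change from hESC to INM was -0.25 (SE 0.13, adjusted p = 0.203) and that from INM to SMC -0.13 (SE 0.13, adjusted p = 0.559). From hESC to SMC it was -0.37 (SE 0.13, adjusted p = 0.0708), with a 95% interval from -0.69 to -0.05, an interval that lies below 0 but is not adjusted over the genes. ELN was called lower in SMC than in hESC with only those groups fitted (adjusted p = 0.0403), the same test as a fit without INM replicate 1 or 2. It was also called lower after quantile normalization, where the change was -0.50 (adjusted p = 0.0300). The probe set is annotated to many ELN transcripts, and splice forms were not separated.

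FBN1 and FBN2, the fibrillins of the microfibril core, both rose in the first step, and in the second FBN1 rose while FBN2 was not called. FBN1 stood at 6.47 and 6.47 in hESC, then 9.99 and 8.77 in INM, then 10.91 and 10.89 in SMC. Its stages did not overlap, although the INM arrays were 1.22 apart. FBN1 rose 7.52-fold by day 4, or 2.91 (SE 0.35, adjusted p = 0.00163), then 2.86-fold to SMC, or 1.52 (SE 0.35, adjusted p = 0.0271). The second call ended with only the INM and SMC arrays fitted (adjusted p = 0.0697), the same test as a fit without hESC replicate 1 or 2. It also ended without SMC replicate 1 (1.51) or SMC replicate 2 (1.53). The fold of FBN1 from hESC to SMC was 21.5 (log2 change 4.43, SE 0.35, adjusted p = 2.1e-04).

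FBN2, the fibrillin known best from developing tissues, had its highest values at day 4. Its values were 7.04 and 7.20 in hESC, then 9.37 and 9.85 in INM, then 9.09 and 9.04 in SMC. Both INM arrays lay above both SMC arrays, and all 4 lay well above hESC. FBN2 rose 5.63-fold by day 4, or 2.49 (SE 0.18, adjusted p = 2.2e-04), and its change from INM to SMC was -0.55 (SE 0.18, adjusted p = 0.0737), not called. That change was -0.79 without INM replicate 1, where it was called, and -0.30 without INM replicate 2, where it was not. FBN2 was still 3.85-fold higher in SMC than in hESC, at 1.95 (SE 0.18, adjusted p = 3.6e-04).

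**Figure D2:**
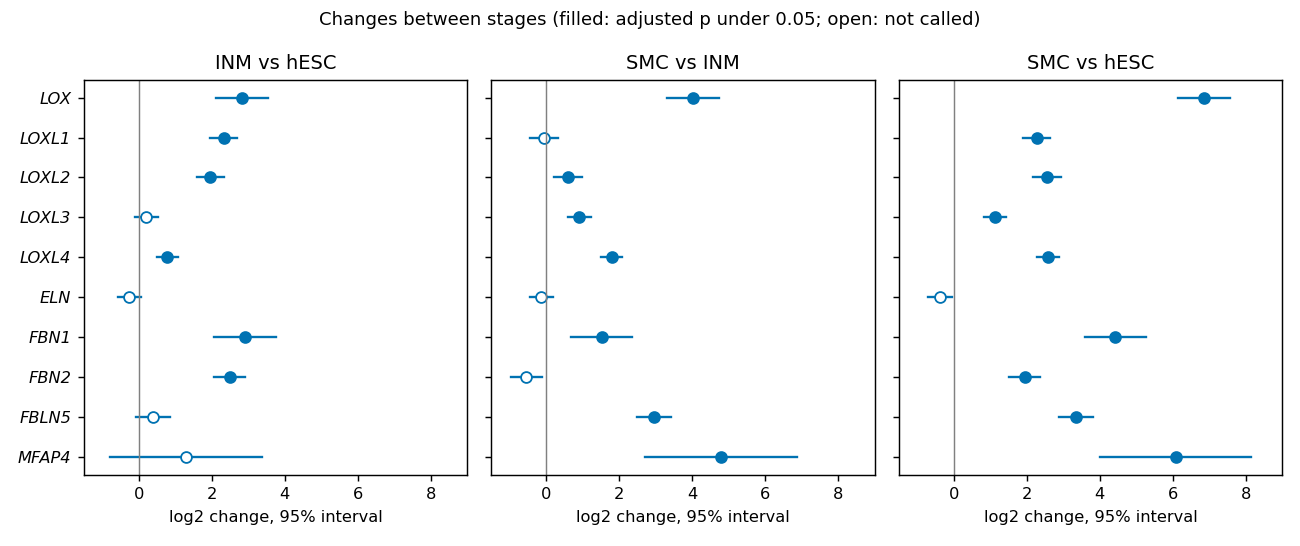
Points give the log2 change of each gene on the x axis for the 3 comparisons, lines give the 95% interval of the limma fit, filled points were called at an adjusted p under 0.05 and open points were not. From INM to SMC the interval of FBN2 ran from -0.97 to -0.12 and that of FBN1 from 0.67 to 2.36.

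FBLN5 and MFAP4, the elastin-binding and microfibril-associated proteins, were called from INM to SMC and not by day 4 when all arrays were used. FBLN5 carries tropoelastin to microfibrils and binds LOXL1. It stood at 7.45 and 7.31 in hESC, then 8.05 and 7.50 in INM, then 10.66 and 10.80 in SMC. INM replicate 2 was close to hESC, and the SMC arrays lay far above both other stages. The first step was 0.40 (SE 0.19, adjusted p = 0.161). It was 0.67 without INM replicate 2, where it was called, and 0.12 without INM replicate 1, where it was not. FBLN5 then rose 7.75-fold from INM to SMC, or 2.95 (SE 0.19, adjusted p = 2.4e-04), and from hESC to SMC 10.2-fold, or 3.35 (SE 0.19, adjusted p = 6.3e-05).

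MFAP4, a microfibril-associated glycoprotein, ended among the largest rises but split the INM pair. Its values were 6.40 and 6.63 in hESC, then 6.25 and 9.36 in INM, then 12.50 and 12.68 in SMC. INM replicate 1 lay below both hESC arrays while INM replicate 2 lay 3.10 above replicate 1, an 8.59-fold gap that 12 of the 18417 genes exceeded. The first step was 1.29 (SE 0.87, adjusted p = 0.294). This step was 2.84 without INM replicate 1, where it was called. It was -0.26 and not called without INM replicate 2, so the direction of MFAP4 by day 4 rests on 1 array. MFAP4 rose 27.6-fold from INM to SMC, or 4.79 (SE 0.87, adjusted p = 0.0114), a call that ended without SMC replicate 1 (adjusted p = 0.0815) or SMC replicate 2 (0.0919). The rise from hESC to SMC was 67.5-fold, or 6.08 (SE 0.87, adjusted p = 0.00224). Because the stages share 1 spread, this SE carries the gap of the INM pair, although the hESC and SMC pairs were close.

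Counted by step, 6 of the 10 genes rose from hESC to INM (LOX, LOXL1, LOXL2, LOXL4, FBN1 and FBN2) and 0 fell, where 18.9% of all genes rose and 14.8% fell. Arrays of 8 genes lay wholly higher and those of ELN wholly lower in INM, as did 33.3% and 34.9% of all genes. All 6 calls were kept with any 1 array left out. From INM to SMC 7 genes rose (LOX, LOXL2, LOXL3, LOXL4, FBN1, FBLN5 and MFAP4) and 0 fell, where 9.94% of all genes rose and 11.1% fell. In this step 7 genes lay wholly higher and 2 (ELN and FBN2) wholly lower, beside 29.4% and 32.6% of all genes. Of these, 3 calls (LOX, LOXL4 and FBLN5) were kept with any 1 array left out; the count was 4 without SMC replicate 1 and 3 without SMC replicate 2. In the limma fit at an unadjusted p under 0.05, 0 genes were lower in INM than in hESC, 1 (FBN2) was lower in SMC than in INM and 1 (ELN) was lower in SMC than in hESC. The median change of the 10 genes was 1.62 by day 4 and 1.22 from INM to SMC, beside -0.03 and -0.02 over all genes. The steps share the INM arrays, and the comparisons with hESC share the hESC arrays, so their values are given side by side and not as independent results.

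The INM arrays differed in many of these genes and in markers of cell type. INM replicate 1 minus replicate 2 was 1.22 for FBN1, 1.02 for LOX, 0.55 for FBLN5 and 0.38 for LOXL2, beside -0.48 for FBN2 and -3.10 for MFAP4. ISL1 and HAND1 were nearly equal in the pair, at -0.08 and -0.09. The other nascent mesoderm markers were higher in replicate 2, with TBX20 at -1.11, PDGFRA at -1.46, GATA4 at -1.60 and KDR at -2.38. The smooth muscle markers were divided: 3 of 8 were higher in replicate 1 (TAGLN at 1.13, ACTA2 at 1.12 and CNN1 at 0.43) and 5 in replicate 2 (MYOCD at -0.79, SMTN at -0.66, and DES, MYH11 and LMOD1 at -0.15, -0.10 and -0.06). So were the fibroblast markers, with 5 of 8 higher in replicate 1, among them FAP at 1.31 and COL1A1 at 0.81, and 3 in replicate 2, TCF21 at -1.36, DCN at -1.18 and LUM at -0.15. All 5 chondrocyte markers were higher in replicate 1, with SOX9 at 1.09, ACAN at 0.74, COL2A1 at 0.72, MATN3 at 0.29 and COL9A1 at 0.02. Of 6 stem cell markers 5 were higher in replicate 2. The endothelial and cardiomyocyte lists were divided, with 3 of 5 higher in replicate 1 in each. The part of these cell types in the gaps of the elastic fibre genes was not tested.

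**Figure D3:**
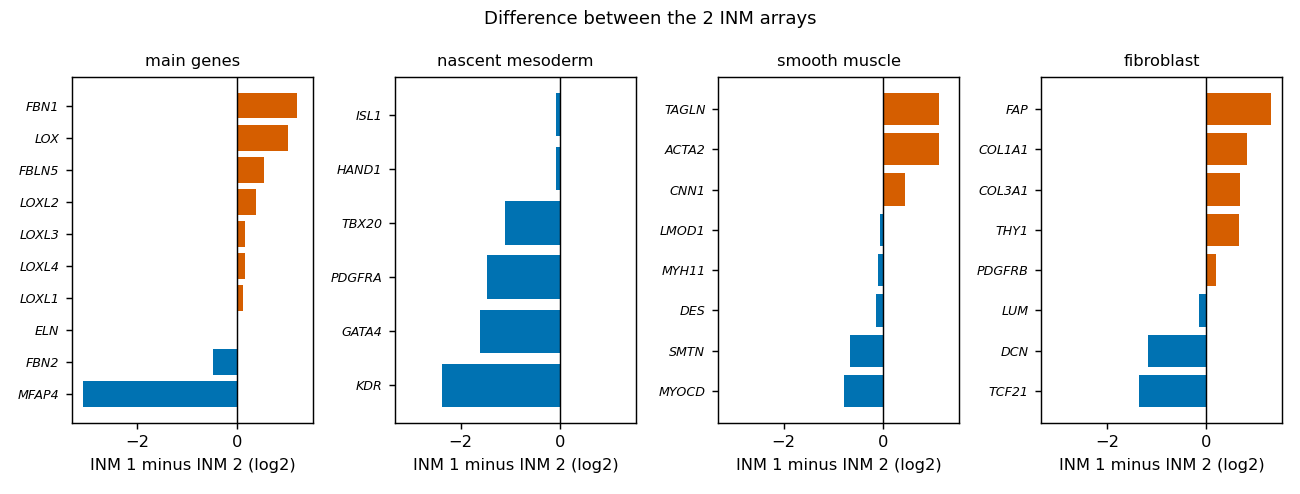
Bars give INM replicate 1 minus INM replicate 2 on the log2 scale for the 10 genes and for nascent mesoderm, smooth muscle and fibroblast markers, orange where replicate 1 was higher and blue where replicate 2 was higher. MFAP4 had the longest bar of the 10, at -3.10, and ELN the shortest, at 0.02.

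Other genes that build, mature, cross-link and degrade elastic fibres moved in both directions. Over 42 such genes in 4 lists, all measured, 27 rose and 2 fell between hESC and SMC, with a median change of 1.12, where 19.7% of all genes rose and 17.6% fell. These lists too were chosen with earlier results of these data known. By day 4, 20 rose and 2 fell (median 0.55), beside 18.9% and 14.8% of all genes. After day 4, 16 rose and 5 fell (median 0.37), beside 9.94% and 11.1%. With each array left out in turn, 21 of the 27 rises from hESC to SMC, 11 of the 20 rises by day 4 and 7 of the 16 rises after day 4 were kept throughout. The count of rises by day 4 was 11 without hESC replicate 1 and 12 without hESC replicate 2. After day 4 it was 26 without INM replicate 1, 9 without SMC replicate 1 and 7 without SMC replicate 2.

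Among microfibril and elastin-binding proteins, 12 of 17 genes rose between hESC and SMC, and 1, FBN3, fell, at -1.53 (adjusted p = 7.2e-04), where 4 did neither. Over all genes 19.7% rose and 17.6% fell in this comparison, 18.9% and 14.8% by day 4, and 9.94% and 11.1% from INM to SMC. FBN3 is the third human fibrillin. Among the 12 rises between hESC and SMC, the calls of EMILIN2, LTBP2, LTBP4 and ADAMTS10 ended without at least 1 array. EFEMP2, fibulin-4, which guides LOX to tropoelastin, rose by 3.20 (adjusted p = 2.4e-05), the fibulin FBLN2 by 2.99, fibronectin (FN1), on which microfibrils assemble, by 2.29, and EFEMP1, fibulin-3, by 2.26. By day 4, 9 rose and 1, EFEMP1, fell, at -0.91, a call that ended without hESC replicate 1 (adjusted p = 0.0616). The largest of those 9 rises was that of MFAP5, a microfibril glycoprotein, at 3.19; its INM arrays stood at 10.95 and 8.02, and the call ended without either hESC array or either SMC array. EFEMP2 rose by 2.09 in that step, the latent TGF-beta binding protein gene LTBP2 by 2.04 and FN1 by 2.00. The day 4 calls of LTBP2, FBLN2, LTBP1 and ADAMTS10 ended without hESC replicate 1 or 2. Those of LTBP1 and ADAMTS10 also ended without SMC replicate 1 or 2. The 5 that rose from INM to SMC were these: EFEMP1 by 3.18, FBLN2 by 1.80, LTBP3 by 1.69, EFEMP2 by 1.12 and EMILIN1, an elastin-interface protein, by 0.89. In the same step 4 fell: FBN3 by 1.32, MFAP5 by 2.91, FBLN1 by 0.77 and EMILIN2 by 0.64. The falls of MFAP5, FBLN1 and EMILIN2 and the rise of EMILIN1 ended without SMC replicate 1 or 2, that of MFAP5 also without hESC replicate 1 or 2, and the rise of FBLN2 without SMC replicate 2.

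Genes that mature the oxidases, supply their copper or handle tropoelastin rose in 9 of 13 cases between hESC and SMC, and 0 fell by limma (0 also at an unadjusted p under 0.05). The shares of all genes that rose were 19.7% in this comparison, 18.9% by day 4 and 9.94% from INM to SMC. POSTN, periostin, a matrix protein that aids LOX activation, rose by 3.65, PCOLCE, an enhancer of procollagen C-proteinase, by 2.99, BMP1, the protease that removes the propeptide of LOX, by 2.01, and ATP7A, the pump that loads copper onto secreted enzymes, by 1.99. All 4 calls were kept with any 1 array left out. By day 4, 6 rose and 0 fell (1 at an unadjusted p under 0.05), led by POSTN at 3.61, ATP7A at 1.47, BMP1 at 1.45 and GLB1, the gene of beta-galactosidase and of the elastin-binding protein spliced from it, at 1.04. The BMP1, PCOLCE and FKBP10 calls by day 4 ended without hESC replicate 1 or 2. From INM to SMC 7 rose and 0 fell (0 unadjusted), led by PCOLCE at 2.44, PCOLCE2 at 1.45, CTSA at 1.04 and FKBP10, a chaperone of tropoelastin and collagen, at 0.96. Among those 7, the calls of ATP7A, ATOX1 and SLC31A1 ended without at least 1 array.

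The 3 lysyl hydroxylases, which modify collagen lysines that the oxidases later act on, all rose between hESC and SMC: PLOD2 by 3.01, PLOD1 by 2.34 and PLOD3 by 1.72. All 3 rose by day 4 as well, by 1.88, 1.43 and 1.44, and PLOD2 and PLOD1 rose again from INM to SMC, by 1.14 and 0.91. Those last 2 calls ended without SMC replicate 1 or 2, and that of PLOD2 also without hESC replicate 1 or 2. Among 9 elastin-degrading proteases, 3 rose between hESC and SMC (MMP2 by 3.04, MMP14 by 2.12 and MMP7 by 0.49) and 1 fell (CTSV, at -2.94). The median change of the proteases was 0.18, and with 19.7% of all genes rising and 17.6% falling these counts are not far from the share over all genes. MMP7 lay under the low-signal limit in every stage, with MMP12 and CTSS, so its level is not shown to lie above background. By day 4 MMP2 and MMP14 rose, by 3.47 and 1.83, and CTSK, cathepsin K, fell by 0.74, where 18.9% of all genes rose and 14.8% fell. From INM to SMC MMP12 and CTSK rose, by 0.57 and 0.79, and CTSV fell by 3.11, where 9.94% of all genes rose and 11.1% fell. The CTSV call from hESC to SMC ended without either hESC or either SMC array, and each of the other protease calls but those of MMP2 ended without at least 1 array. The INM arrays of CTSV stood at 8.26 and 10.96, and those of MMP9, a gelatinase, at 11.66 and 7.82.

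**Figure D4:**
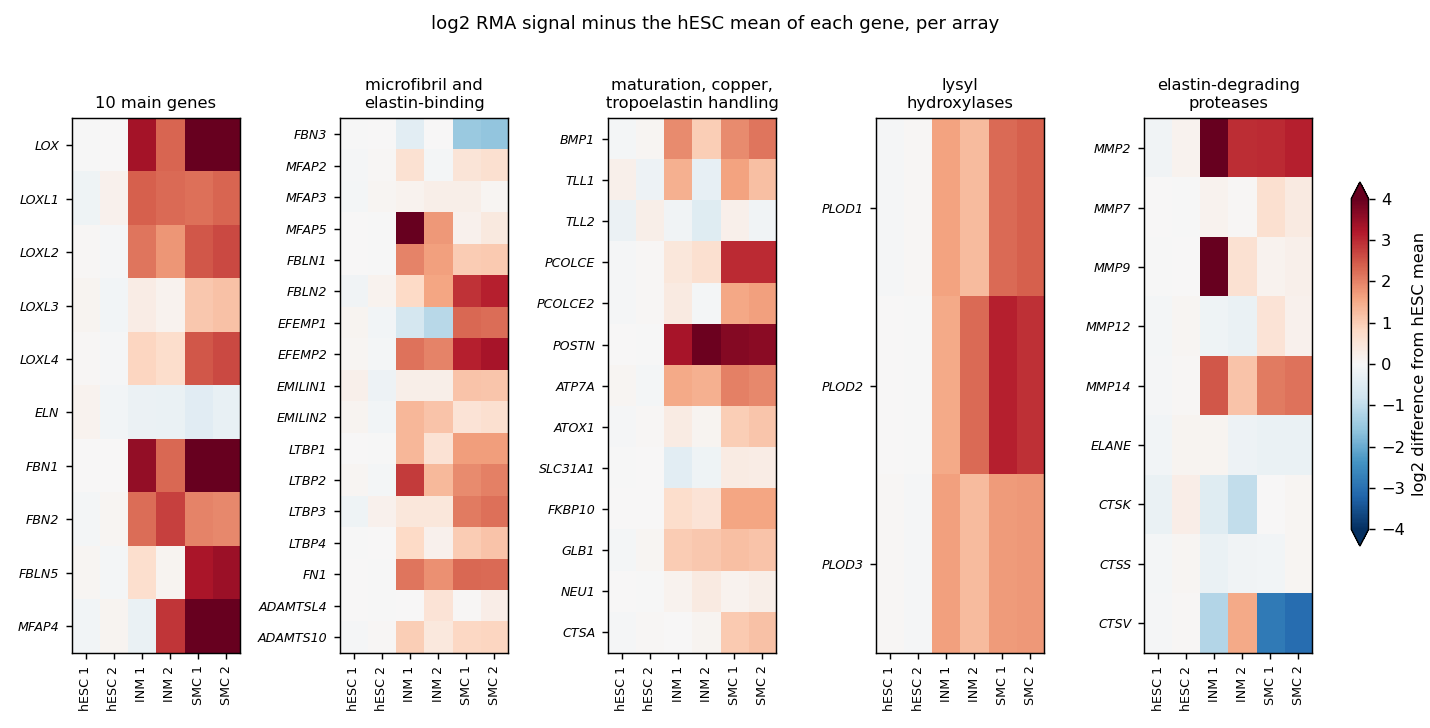
Colours give the log2 RMA signal of each gene (rows) minus its hESC mean on each of the 6 arrays (columns), red for higher and blue for lower, with the scale ending at 4 in both directions. ELN stayed near the hESC level on all arrays, while the SMC arrays of LOX, FBN1 and MFAP4 lay beyond the end of the scale.

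Of the marker lists of other cell types, those of fibroblasts were all called between hESC and SMC, and under 3 in each of the endothelial, chondrocyte and cardiomyocyte lists were. Over all genes 19.7% rose and 17.6% fell in this comparison. All 8 fibroblast markers rose between hESC and SMC, with LUM at 9.21, DCN at 6.85, COL3A1 at 5.62 and COL1A1 at 3.96; the call of THY1 ended without either hESC or either SMC array. Their mean level over the list was 6.51 and 6.41 in hESC, then 8.63 and 8.51 in INM, then 10.97 and 10.99 in SMC. The mean over the 8 smooth muscle markers was 7.16 and 7.09, 8.51 and 8.39, and 8.79 and 8.86. DCN, LUM and FAP lay under the low-signal limit in hESC, and DCN and FAP in INM. Among 5 endothelial markers 2 rose between hESC and SMC, PECAM1 at 1.43 and CDH5 at 0.95, and the call of CDH5 ended without either hESC or either SMC array. Of 5 chondrocyte markers SOX9 rose, at 1.05, a call that ended without either hESC or either SMC array, and COL9A1 fell, at -0.89. INM replicate 1 minus replicate 2 was 0.65 for THY1, 0.76 for CDH5 and 1.09 for SOX9. Of the 5 cardiomyocyte markers measured 0 rose by limma (0 also at an unadjusted p under 0.05), and RYR2 fell, at -1.94. The chondrocyte and cardiomyocyte counts are not far from the share over all genes. The part of these cell types in the levels of the elastic fibre genes was not tested.

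For each of the 9 genes called in any comparison, the genes with the nearest course over the 6 arrays were found by the root mean square (RMS) difference of values centred on each gene's mean, as a description with no test. TDO2, an enzyme of tryptophan breakdown, was nearest to LOX, at an RMS difference of 0.43 on the log2 scale, followed by ST8SIA4 at 0.61. The secreted metalloprotease inhibitor TIMP1 was nearest to LOXL4, at 0.05, with PRAF2 next at 0.11, and ATL3 and the collagen prolyl hydroxylase gene P3H3 to LOXL3, at 0.03 and 0.05. FBN1 was followed most closely by ZEB1, a transcription factor of mesenchymal transition, at 0.12 and by the proteoglycan gene BGN at 0.13. FBLN5 lay nearest to COL15A1 and NPAS2, both at 0.14, and FBN2 to SRR and LIPG, both at 0.10. LOXL1 had BBS5 and TCP11L2 at 0.09 and 0.12, and LOXL2 had CD99 and BBOF1, both at 0.11. Nearest to MFAP4 were the proteoglycan gene DCN at 0.79 and DLK1 at 0.81. Values were centred but not scaled, so the RMS difference depends on a gene's own range and does not rank closeness between genes. The range of stage means was 6.08 for MFAP4 and 1.13 for LOXL3.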

How the data were processed

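The authors deposited 1 log2 value per array for each of 33297 probe sets. The submitters' processing notes list RMA and limma with no version; how RMA was set, the array's build and whether values were centred is not given in the sources used here. The scale was taken to be log2 because values run from 1.36 to 14.1.

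Gene names came from the platform's annotation table (19460 with 1 symbol, 1754 with several, 12083 unnamed here). Symbols were updated by Entrez identifier to GRCh38.p14 names (19429 matched), and the probe set with the highest mean stood for its gene, which gave 18417 genes.

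Without further normalization or filtering, a model of group means over the 6 arrays was fitted in R 4.3.3 with limma 3.58.1, lmFit then eBayes (3 residual and 3.56 prior degrees of freedom). Tests were two-sided, adjusted by Benjamini-Hochberg over all 18417 genes and called at an adjusted p under 0.05. The fit was tested on simulated data with 50 genes changed in SMC at each of 4 log2 sizes. From hESC to SMC it called 2% of changes of 0.5, 54% of 1, 84% of 2 and 100% of 4. Of 126 calls, 6 were of unchanged genes. Far fewer genes changed there than were called in the data, so these shares need not hold here. An exact permutation test of 2 against 2 arrays cannot give a p under 0.333, and the number of arrays limits the precision. The low-signal limit, 5.04, is the smallest of the 6 array medians over unnamed probe sets; no fold is given where a group mean lies under it. From each related list, up to 4 genes with the largest called change per comparison are named, and every gene behind a count of 5 or fewer. The genes, lists and naming rule were chosen with earlier results of these data known. Same-numbered replicates deviated together with correlations of 0.07, -0.12 and -0.07 across pairs of groups, so the numbers were not taken to pair the samples. Alternatives were median centring, quantile normalization, a low-signal filter, the 2 compared groups alone, a replicate block, the mean of a gene's probe sets, an intensity trend together with a robust prior, array weights and each array left out.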

Additional observations from a re-analysis of the deposited data

How the results depend on the processing

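Under 14 alternatives the 30 changes of the 10 genes (10 genes in 3 comparisons) gave 420 values, of which 393 kept direction and side of the threshold, 16 lost the call, 8 gained one and 3 turned sign. In each comparison, leaving out an array of the third group repeats the fit of the compared groups alone, so these 420 values are not all separate tests. The 3 were MFAP4 from hESC to INM without INM replicate 2 (-0.26), and LOXL1 from INM to SMC without INM replicate 1 (0.01) or SMC replicate 1 (0.02), where fewer arrays entered; with single arrays left out these changes ranged from -0.26 to 2.84 and from -0.13 to 0.02. Among the 10 genes, 1 was called lower from hESC to SMC with quantile normalization, array weights or only the compared groups (ELN in each), against 0 with all arrays as deposited; the cause was not tested. Related genes called lower by day 4 numbered 1, not 2, with the replicate block, array weights or the compared groups alone. Those called lower from INM to SMC numbered 3, not 5, with the intensity trend and robust prior together or the compared groups alone, and over all genes the compared groups alone gave 1289 lower calls in that step, against 2043. The replicate block ended 1 call among the 10 genes, LOXL2 from INM to SMC (0.60, adjusted p = 0.0551), which quantile normalization (0.59, adjusted p = 0.0598) and the compared groups alone (0.60, adjusted p = 0.0851) ended too; under the block all other calls of these genes stayed on their side of the threshold.

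With 1 array left out, the lone array of a group is assumed to vary like the other groups. All genes called then ranged from 1719 to 4337 higher and 1220 to 3491 lower by day 4, 571 to 2628 and 563 to 3515 from INM to SMC, and 2154 to 4627 and 1649 to 4573 from hESC to SMC. Related genes called ranged from 11 to 24 higher and 1 to 4 lower by day 4, 7 to 26 and 1 to 8 from INM to SMC, and 22 to 30 and 1 to 2 from hESC to SMC. Of the 10 genes, 6 to 7 were called higher by day 4, 3 to 7 were called higher and 0 to 1 lower from INM to SMC, and 9 higher with 0 to 1 lower from hESC to SMC. Signal over background was not given, so values near the low-signal limit have no known floor.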
